A study of Mus musculus with 12 samples.

Results

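The genes described here are the amino acid transporter families of the mouse liver, taken as every gene whose symbol on the array starts with Slc1a, Slc3a, Slc6a, Slc7a, Slc36a, Slc38a or Slc43a. The array measured 63 such genes of 18193 genes with a symbol of their own, namely 7 of the Slc1 family, 2 of Slc3, 21 of Slc6, 16 of Slc7, 5 of Slc36, 9 of Slc38 and 3 of Slc43. Membership goes by symbol alone, but the families were picked with earlier results of these data known, among them the fall of Slc1a2 with CCl4. It also took in 3 transcripts named for lying on the opposite strand of a transporter gene (Slc7a6os, Slc36a1os and Slc6a19os), which are not carriers.

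RNA came from whole livers of male Balb/c mice, in 4 groups of 3 arrays, with the 3 arrays of a group labelled as biological replicates. The mice were obtained at 8 weeks of age and were older at the end of the treatment. All mice received a lentivirus through the tail vein, either Lenti-NC with a control hairpin or Lenti-shLFAR1 with a hairpin against lnc-LFAR1, a long non-coding RNA enriched in liver. NC and shLFAR1 mice were injected with olive oil, whereas NC+CCl4 and shLFAR1+CCl4 mice received carbon tetrachloride (CCl4), a liver toxin that scars the organ on repeated dosing. CCl4 was given as a 5% solution in olive oil at 0.3 ml per kg, 3 injections a week for 6 weeks, with the virus given after 2 weeks and the injections continued for a further 4 weeks. The hairpin was driven by the H1 promoter, which is active in most cell types, and no probe set is named for lnc-LFAR1, so its knockdown was not checked on these arrays.

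Amino acid carriers set what enters and leaves a hepatocyte, the cell that breaks down amino acids, makes urea from their nitrogen and exports glutamine. In the liver lobule the hepatocytes around the portal vein make urea from ammonia, and the last cells before the central vein take up glutamate and fix the remaining ammonia in glutamine. The carriers fall into types by what drives them. Slc1 and Slc6 proteins use the sodium gradient, Slc38 proteins move small neutral amino acids and glutamine with sodium, Slc36 proteins use protons, and the Slc7 light chains exchange 1 amino acid for another after pairing with an Slc3 heavy chain.

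Values are the deposited log2 values of the probe set with the highest mean for each gene, on which a difference of 1 is a doubling, and NC+CCl4 was compared with NC first, to see what CCl4 did under the control virus. Calls were made with limma, where p adjusted over all 18193 genes had to be under 0.05. Of 63 transporter genes, 9 rose and 5 fell in NC+CCl4 (of all genes, 7.66% were called higher and 5.41% lower). The called share was 22.2% of the transporter genes and 13.1% of all genes. The median log2 difference was -0.06 over the transporter genes and -0.05 over all genes. Of the 14 called genes, 11 belonged to the 27 transporter genes whose mean lay above the median gene of the array, a called share of 40.7% against 18.1% of all genes above that median. Below it 3 of 36 were called, 8.33% against 8.02% of all genes.

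The arrays themselves were not alike within both CCl4 groups. On the first principal component, which held 56.3% of the variance over all genes, the 6 oil arrays lay between -26.7 and -20.4 and NC+CCl4 between 34.8 and 48.8. Replicates 1 and 2 of shLFAR1+CCl4 lay at -6.80 and -9.66, but the place of replicate 3 was 39.2, within the span of NC+CCl4. Replicate 1 of NC+CCl4 differed from the rest in the 3′ minus 5′ signal of Gapdh, a sign of RNA quality (0.72 on the log2 scale, against -0.21 to 0.03 on the other 11 arrays). Results that rest on either array are therefore given with and without it. Replicate 3 of shLFAR1+CCl4 was picked by where it lay, so comparisons of that group without it describe the 2 arrays left.

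Cell type markers moved too. Of the stellate cell and fibroblast markers 7 of 8 rose in NC+CCl4, as did 6 of 8 for macrophages, 3 of 5 for neutrophils and all 5 measured for cycling cells, while 1 of 8 for hepatocytes fell. Their mean log2 level above NC was 2.25 to 2.47 for stellate cells and 1.33 to 2.03 for macrophages on the NC+CCl4 arrays, and -0.29 to -0.10 for hepatocytes. The hepatocyte marker that fell was Pck1, with a log2 difference of -1.55, while the median over the 8 was -0.05. Alb, Ttr and Cps1 gave 0.13, 0.18 and 0.12 and the remaining hepatocyte markers -0.27 to -0.04, none called. On the shLFAR1+CCl4 arrays the mean log2 level above NC was 0.57, 0.87 and 2.01 for stellate cells. Macrophage markers at 0.65, 0.55 and 1.56 and cycling markers at -0.01, -0.03 and 2.94 were also highest on replicate 3. Neutrophil markers were not, at 1.34, 1.53 and 1.18, against 1.22 to 1.59 on the NC+CCl4 arrays. No marker was called of 5 for cholangiocytes, 6 for endothelium and 6 for lymphocytes, and 1 of 5 for kidney and 1 of 3 for pancreas fell. The liver markers Alb and Ttr stood near the top of the scale on every array. In whole liver a fall in the cells that make an RNA and a fall in RNA per cell cannot be told apart, and the part of these markers in the results below was not tested.

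Slc1a2, the glutamate carrier GLT-1, changed most among the transporter genes, and its fall was known when the families were picked. It is best known from astrocytes, and in liver from the pericentral hepatocytes that make glutamine. Slc1a2 read 8.34, 7.99 and 7.88 in NC, 3.83, 4.45 and 4.55 in NC+CCl4, 7.98, 7.75 and 8.04 in shLFAR1 and 7.80, 7.92 and 4.31 in shLFAR1+CCl4. The NC+CCl4 values lie far below all 6 oil values, and shLFAR1+CCl4 is split, with replicates 1 and 2 at the oil level and replicate 3 at the NC+CCl4 level. Slc1a2 fell by 3.79 ± 0.70 (SE) on the log2 scale in NC+CCl4, which is 13.8-fold, with an adjusted p of 0.0046 in limma. The 4 groups share 1 estimate of spread, so this SE also holds the split of shLFAR1+CCl4. The SD was 2.05 there, against 0.24 in NC and 0.39 in NC+CCl4. With 1 array left out the adjusted p in limma ranged from 1.5e-07 to 0.024. The values carry no detection call, so the low end may be background and the fold may be understated.

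The bases upstream of the start of Slc1a2 are shown because this gene changed most, and those of Slc38a2 and Slc3a1 because they carry the next largest fall and the most repeatable rise. Each is the 250 bases before the RefSeq start in build GRCm38.p6, read 5′ to 3′ on the gene's strand. Slc1a2 is chr2:102706188-102706437 on the plus strand, Slc38a2 is chr15:96699729-96699978 on the minus strand and Slc3a1 is chr17:85028097-85028346 on the plus strand. Capitals mark CTTTGA, the core read by the TCF/LEF factors of Wnt signalling, and TGACNNNGC, the core of the antioxidant response element, on either strand.
Slc1a2: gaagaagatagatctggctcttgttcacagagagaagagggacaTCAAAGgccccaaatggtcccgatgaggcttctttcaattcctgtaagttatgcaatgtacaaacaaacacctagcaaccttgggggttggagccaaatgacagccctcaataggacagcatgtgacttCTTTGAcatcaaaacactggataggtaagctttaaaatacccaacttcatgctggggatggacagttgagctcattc
Slc38a2: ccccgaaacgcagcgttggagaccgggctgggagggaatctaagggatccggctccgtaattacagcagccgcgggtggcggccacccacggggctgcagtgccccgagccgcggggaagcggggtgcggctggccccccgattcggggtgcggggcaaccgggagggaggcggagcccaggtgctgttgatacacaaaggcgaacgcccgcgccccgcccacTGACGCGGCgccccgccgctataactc
Slc3a1: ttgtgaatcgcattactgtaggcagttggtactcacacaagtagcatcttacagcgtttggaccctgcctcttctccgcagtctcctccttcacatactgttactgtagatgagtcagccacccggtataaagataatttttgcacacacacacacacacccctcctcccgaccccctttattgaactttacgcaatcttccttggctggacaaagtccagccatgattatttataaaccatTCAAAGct

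Slc1a2 holds 2 matches to CTTTGA and Slc3a1 holds 1, whereas the capitals of Slc38a2 are 1 match to TGACNNNGC. CTTTGA occurs upstream of 15.8% of the 27025 genes with a listed start and of 11 of the 46 transporter genes found there. TGACNNNGC occurs upstream of 11.5% of all genes and of 9 of the 46. The third motif searched, TGATGNAA, which ATF4 and C/EBP proteins read in amino acid shortage, was found upstream of 3.91% of all genes and of 3 of the 46, of which Slc7a7 was the called one. A gene with several starts has several windows. No match overlaps another in the 3 windows shown. A match of letters is a description and no binding site. The upstream windows also differ in base composition, with a GC content of 44.8% for Slc1a2, 72.0% for Slc38a2 and 45.6% for Slc3a1.

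Probe sets for Slc1a2 number 5, and 3 of them fell. The second brightest read 7.89, 7.69 and 7.68 in NC, 4.42, 4.22 and 4.15 in NC+CCl4, and 7.71, 7.75 and 3.67 in shLFAR1+CCl4. The third was lower from the start and read 5.34, 5.15 and 4.97 in NC and 3.66, 3.94 and 3.55 in NC+CCl4. Both show the same split of the shLFAR1+CCl4 arrays. The log2 differences of NC+CCl4 against NC were -3.49 and -1.44, against 0.07 and -0.12 for the remaining probe sets, which were not called.

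**Figure D1:**
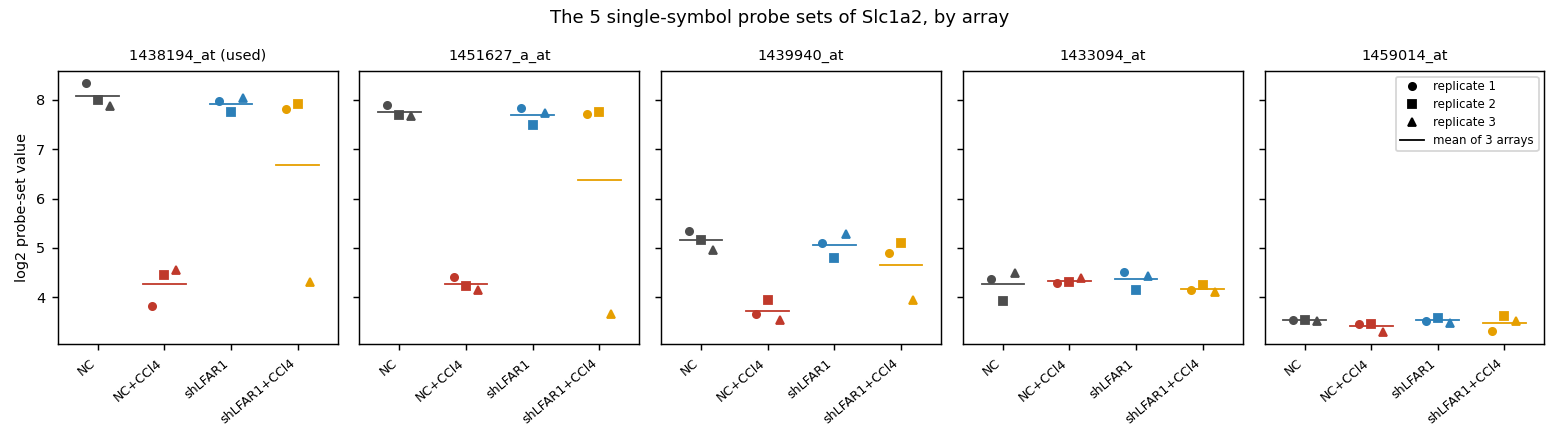
Log2 value of each Slc1a2 probe set on the 12 arrays by group, with the mean as a line and a marker shape for each replicate number. In 3 of the 5 probe sets all NC+CCl4 arrays and shLFAR1+CCl4 replicate 3 lie below the oil arrays, and the other two are flat.

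The remaining glutamate and aspartate carriers, Slc1a1, Slc1a3, Slc1a6 and Slc1a7, gave log2 differences of -0.18 to 0.02 and were not called. The family's 2 small neutral exchangers both rose. Slc1a4 (ASCT1), which swaps alanine, serine, cysteine and threonine, read 5.71, 5.36 and 5.76 in NC, 6.82, 6.24 and 6.68 in NC+CCl4, 5.67, 5.78 and 5.12 in shLFAR1 and 5.86, 5.90 and 6.37 in shLFAR1+CCl4. All NC+CCl4 values lie above all oil values, shLFAR1+CCl4 replicate 3 lies among them, and replicates 1 and 2 lie just above the oil arrays. Slc1a4 rose by 0.97 ± 0.21 (SE) on the log2 scale with an adjusted p of 0.011, and its other 2 probe sets were called the same way. Slc1a5 (ASCT2), a glutamine exchanger of dividing cells, read 4.87, 4.95 and 4.68 in NC, 5.54, 5.57 and 5.52 in NC+CCl4, 4.93, 5.14 and 4.89 in shLFAR1 and 4.92, 5.39 and 5.91 in shLFAR1+CCl4. NC+CCl4 lies in a narrow band above all oil arrays, and shLFAR1+CCl4 spans from the oil level to above that band. Slc1a5 rose by 0.71 ± 0.20 (SE) with an adjusted p of 0.033, and its second probe set was not called.

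Of the heavy chains, which carry the light chains to the membrane, Slc3a1 rose and Slc3a2 was not called. Slc3a1 (rBAT), known from cystine and basic amino acid uptake in kidney and gut, read 8.28, 8.24 and 8.13 in NC, 9.40, 9.26 and 9.47 in NC+CCl4, 8.17, 8.32 and 8.24 in shLFAR1 and 9.70, 9.51 and 9.69 in shLFAR1+CCl4. All 6 CCl4 arrays, of either virus, lie above all 6 oil arrays by a wide margin. Slc3a1 rose by 1.16 ± 0.10 (SE) under the control virus, which is 2.23-fold, with an adjusted p of 9.9e-05. Slc3a2 (CD98), the partner of most light chains, read 8.59, 8.56 and 8.47 in NC and 9.18, 8.61 and 8.62 in NC+CCl4, and only replicate 1 stood clear of the oil arrays. Its log2 difference was 0.27 ± 0.14 (SE) with an adjusted p of 0.26.

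Among the light chains 2 of 10 rose and none fell. Slc7a7 (y+LAT1), which exchanges basic for neutral amino acids in epithelia and macrophages, read 4.98, 5.22 and 5.30 in NC, 6.26, 6.46 and 6.11 in NC+CCl4, 5.33, 5.57 and 5.13 in shLFAR1 and 5.59, 5.51 and 6.35 in shLFAR1+CCl4. NC+CCl4 stands above the oil arrays, shLFAR1+CCl4 replicate 3 stands with it, and replicates 1 and 2 lie at or just above the oil arrays. Slc7a7 rose by 1.11 ± 0.21 (SE) with an adjusted p of 0.0051, but its other probe set was not called, with a log2 difference of 0.31 ± 0.14 (SE). Slc7a8 (LAT2), a carrier of neutral amino acids, read 4.58, 4.73 and 4.75 in NC and 5.20, 5.29 and 5.03 in NC+CCl4, without overlap. It rose by 0.48 ± 0.14 (SE) with an adjusted p of 0.037.

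The other 8 light chains were not called. They include Slc7a5 (LAT1), the carrier of large neutral amino acids in growing cells, with a log2 difference of 0.03 ± 0.17 (SE), and Slc7a11 (xCT), which brings in cystine for glutathione, with 0.04. Slc7a9, the usual partner of Slc3a1, gave -0.40 with an adjusted p of 0.090 at a low level of 3.19 over all arrays.

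The cationic carriers, which bring in arginine, lysine and ornithine without a partner, held 1 gene that fell and 1 that rose. Slc7a2 (CAT2), the main hepatocyte form, read 11.24, 10.61 and 11.18 in NC, 10.06, 10.49 and 10.02 in NC+CCl4, 11.21, 11.02 and 11.19 in shLFAR1 and 11.00, 10.77 and 11.49 in shLFAR1+CCl4. NC+CCl4 lies below every other array, and shLFAR1+CCl4 lies at the oil level, its replicate 3 the highest of all 12. Slc7a2 fell by 0.82 ± 0.20 (SE) on the log2 scale with an adjusted p of 0.018, but none of its other 3 probe sets was called, with log2 differences of -0.83, -0.23 and -0.06. Slc7a1 (CAT1), the widespread form that adult liver hardly makes, read 5.42, 5.29 and 5.54 in NC, 5.85, 6.03 and 6.08 in NC+CCl4, 5.33, 5.75 and 5.54 in shLFAR1 and 5.72, 5.76 and 5.72 in shLFAR1+CCl4. NC+CCl4 lies above all oil arrays by a small margin, and all 3 shLFAR1+CCl4 arrays lie at the top of the oil range. Slc7a1 rose by 0.57 ± 0.13 (SE) with an adjusted p of 0.012, and 1 of its other 2 probe sets was called the same way. Slc7a3, Slc7a4 and Slc7a14 were not called.

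In the Slc38 family 1 of 9 genes fell and none rose. Slc38a2 (SNAT2), the carrier that cells add to their surface when amino acids run short, read 11.11, 10.60 and 10.92 in NC, 9.26, 9.83 and 9.64 in NC+CCl4, 9.98, 10.03 and 10.58 in shLFAR1 and 10.17, 10.51 and 10.40 in shLFAR1+CCl4. NC is the highest group and NC+CCl4 the lowest, and both knockdown groups lie in between and overlap each other. Slc38a2 fell by 1.30 ± 0.19 (SE) in NC+CCl4, which is 2.46-fold, with an adjusted p of 0.0017, and 1 of its other 2 probe sets was called the same way. Slc38a3 (SNAT3), the glutamine carrier of hepatocytes, and Slc38a4 (SNAT4), an alanine carrier of liver, were among the genes named for the highest signal. Slc38a3 gave a log2 difference of -0.14 ± 0.13 (SE), and Slc38a4 -0.24 ± 0.09 (SE) with an adjusted p of 0.11. Slc38a9, the lysosomal arginine sensor, and Slc38a10 were not called.

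Of the Slc43 family 2 of 3 rose. Slc43a2 (LAT4), which lets large neutral amino acids out of cells, read 6.26, 5.91 and 5.99 in NC, 7.53, 7.43 and 6.79 in NC+CCl4, 6.13, 6.21 and 6.16 in shLFAR1 and 5.93, 6.07 and 7.38 in shLFAR1+CCl4. NC+CCl4 and shLFAR1+CCl4 replicate 3 lie clear above the oil arrays, and the other two knockdown arrays lie among them. Slc43a2 rose by 1.19 ± 0.31 (SE) with an adjusted p of 0.026, while its other 2 probe sets were not called. Slc43a3, now known to carry purine bases and not amino acids, read 5.56, 5.49 and 5.61 in NC, 6.00, 6.03 and 6.28 in NC+CCl4, 4.96, 5.16 and 5.40 in shLFAR1 and 5.70, 5.59 and 6.10 in shLFAR1+CCl4. NC+CCl4 lies above all oil arrays, and shLFAR1 is the lowest of the 4 groups. Slc43a3 rose by 0.55 ± 0.16 (SE) with an adjusted p of 0.035. Slc43a1 (LAT3), a branched-chain amino acid carrier of liver, gave -0.10 ± 0.20 (SE).

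The large Slc6 family gave 1 rise and 2 falls among 21 genes. Slc6a8, which carries creatine, a compound the liver makes and exports, read 5.01, 4.95 and 5.23 in NC, 6.94, 6.32 and 6.45 in NC+CCl4, 4.76, 5.21 and 5.07 in shLFAR1 and 5.55, 5.56 and 6.47 in shLFAR1+CCl4. NC+CCl4 stands well above oil, shLFAR1+CCl4 replicate 3 stands with it, and replicates 1 and 2 lie just above the oil arrays. Slc6a8 rose by 1.51 ± 0.24 (SE), which is 2.84-fold, with an adjusted p of 0.0024, the largest rise among the transporter genes, and its second probe set was called the same way. Slc6a9 (GlyT1), a glycine carrier, read 7.95, 7.85 and 7.67 in NC and 7.49, 7.35 and 6.82 in NC+CCl4, without overlap between them. It fell by 0.60 ± 0.17 (SE) with an adjusted p of 0.036, while its other probe set gave -0.40 ± 0.13 (SE) and was not called. Slc6a5 (GlyT2), a glycine carrier of neurons, fell by 0.38 ± 0.10 (SE) with an adjusted p of 0.030, from a mean of 3.63 in NC, a dim value that may be background, and its other probe set gave -0.06.

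The bright Slc6 genes of liver were not called. Slc6a6, the taurine carrier, gave a log2 difference of 0.08 ± 0.12 (SE), and Slc6a13, a GABA and taurine carrier of hepatocytes, -0.18 ± 0.10 (SE). Slc6a12, the carrier of betaine, gave -0.48 ± 0.16 (SE) with an adjusted p of 0.075, and its NC+CCl4 values of 8.32, 8.03 and 7.55 lay below all NC values, which spanned 8.44 to 8.46. Slc6a12 was called lower without NC+CCl4 replicate 1, at -0.66 ± 0.15 (SE) with an adjusted p of 0.016, and also without both arrays that stood apart (0.0073), with array weights (0.024), with the replicate block (0.038) and with quantile normalization (0.047). No other alternative called Slc6a12. Other genes gained a call in the same way, namely Slc36a4 without NC replicate 2, Slc6a16 without NC+CCl4 replicate 2 and Slc7a9 without shLFAR1+CCl4 replicate 3. The monoamine carriers Slc6a2, Slc6a3 and Slc6a4 gave -0.15 to -0.11, and Slc6a16 and the orphan Slc6a21 gave -0.43 and -0.31. Of the Slc36 family none was called. Slc36a1, a proton-driven carrier of lysosomes, gave 0.07 ± 0.14 (SE), and Slc36a4 gave 0.56 with an adjusted p of 0.11. The 3 opposite-strand transcripts were not called either, with Slc7a6os at -0.33 ± 0.16 (SE).

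**Figure D2:**
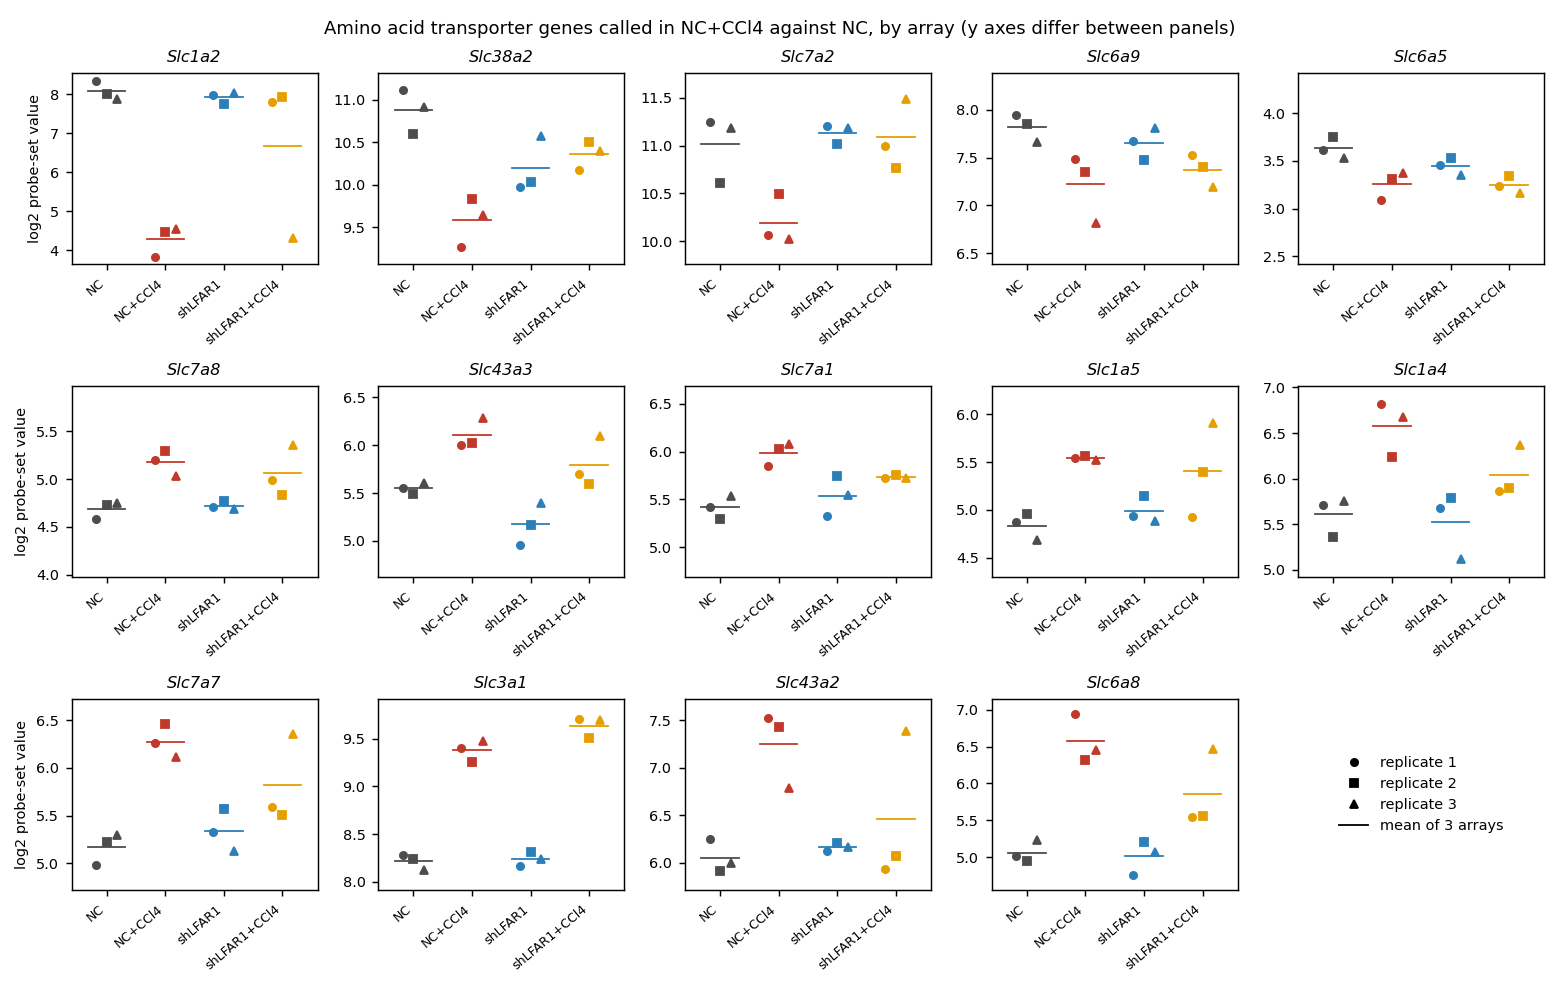
Log2 value on each of the 12 arrays of the 14 transporter genes called in NC+CCl4 against NC, from the largest fall to the largest rise, with the mean of 3 arrays as a line. In most panels the triangle of shLFAR1+CCl4, replicate 3, lies with NC+CCl4, and Slc3a1 is raised in all arrays of both CCl4 groups.

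The 14 calls were not equally firm when 1 array was left out. Slc1a2, Slc38a2, Slc3a1, Slc6a8 and Slc7a7 were called in all 12 such fits. Slc1a4 and Slc7a1 lost the call without NC replicate 2, with adjusted p of 0.054 and 0.059. Slc6a5 lost it without NC replicate 1, NC replicate 2 or NC+CCl4 replicate 1, and Slc7a2 without NC replicates 1 or 3 or NC+CCl4 replicates 1 or 3. Slc43a2 lost it without any 1 NC array or NC+CCl4 replicates 1 or 2, and Slc1a5 without any 1 array of either group compared. Slc43a3 and Slc6a9 lost it without any 1 NC array, NC+CCl4 replicate 3 or 1 shLFAR1 array (replicate 2 and replicate 1, respectively). Slc7a8 lost it without 8 of the 12 arrays, namely any 1 oil array or NC+CCl4 replicates 1 or 2. The highest adjusted p for these 7 genes lay between 0.080 and 0.13, and no gene changed direction. Without NC+CCl4 replicate 1, 6 transporter genes rose and 4 fell, against 12.1% of all genes called.

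The second CCl4 comparison, shLFAR1+CCl4 against shLFAR1, asks the same under the knockdown virus. Its group means share no array with the first, but both tests use the spread estimated over all 4 groups, so they are not independent. Of 63 transporter genes 1 rose and none fell (of all genes, 0.324% were called higher and 0.0824% lower). Unadjusted, 6 of the 63 had a p under 0.05, beside 1960 of all 18193 genes. The gene that rose was Slc3a1, by 1.39 ± 0.10 (SE) on the log2 scale or 2.62-fold, with an adjusted p of 4.7e-05. Slc1a2 gave -1.24 ± 0.70 (SE) with an adjusted p of 0.56, from values of 7.98, 7.75 and 8.04 in shLFAR1 against 7.80, 7.92 and 4.31 in shLFAR1+CCl4. Slc6a8 gave 0.85 ± 0.24 (SE) with an adjusted p of 0.19, Slc43a3 0.62 ± 0.16 (SE) with 0.13, and Slc38a2 0.16 ± 0.19 (SE) with 0.83.

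The interaction tests whether CCl4 acted differently under the 2 viruses, as the CCl4 difference with the knockdown virus minus that with the control virus. No transporter gene was called in limma (of all genes, 0.022% were called higher and 0% lower). Unadjusted, 5 of the 63 had a p under 0.05, beside 1731 of all 18193 genes. The smallest p was that of Slc38a2, with a log2 difference of 1.46 ± 0.27 (SE), a 95% interval of 0.84 to 2.08 and an adjusted p of 0.12. Slc1a2 gave 2.54 ± 0.98 (SE) with an adjusted p of 0.44, Slc7a2 0.77 ± 0.28 (SE) with 0.41, and Slc38a5, a glutamine carrier read near the bottom of the scale, 0.44 ± 0.16 (SE) with 0.42. Slc3a1 gave 0.23 ± 0.14 (SE), with a 95% interval of -0.09 to 0.56.

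Without shLFAR1+CCl4 replicate 3 the interaction was called for 4 transporter genes, while 3.20% of all genes were called. Slc1a2 then gave 3.73 ± 0.28 (SE) with an adjusted p of 4.5e-05, Slc38a2 1.44 ± 0.29 (SE) with 0.019, Slc43a2 -1.36 ± 0.26 (SE) with 0.017 and Slc7a7 -0.90 ± 0.22 (SE) with 0.047. Without NC+CCl4 replicate 2, Slc38a2 was the only transporter gene called, and the share of all genes called in that fit was not counted. The group of 2 that remains after replicate 3 is left out was chosen by where that array lay, so these values describe the 2 arrays left.

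The third comparison set both CCl4 groups side by side, shLFAR1+CCl4 against NC+CCl4, and shares the NC+CCl4 arrays with the first. No transporter gene was called in limma (of all genes, 0.176% were called higher and 0.115% lower). Unadjusted, 14 of the 63 had a p under 0.05, beside 2579 of all 18193 genes. Student's t-test at the methods' thresholds, an unadjusted p under 0.05 and a fold over 1.6, took Slc38a2 and Slc7a2. The share of all genes taken by that test was not counted. Slc7a2 was higher in all 3 knockdown arrays than in any NC+CCl4 array, by 0.89 ± 0.20 (SE) on the log2 scale with an adjusted p of 0.084 in limma. Another of its probe sets also separated the groups, with means of 6.29 in shLFAR1+CCl4 and 5.51 in NC+CCl4. The groups overlapped in its remaining probe sets, with means of 7.93 against 7.56 and 6.99 against 6.86. Slc38a2 was higher in shLFAR1+CCl4 without overlap in the probe set used, by 0.78 ± 0.19 (SE) with an adjusted p of 0.097. Slc43a1 read 7.07, 6.85 and 7.51 against 6.07, 6.32 and 6.85, a difference of 0.73 ± 0.20 (SE) with an adjusted p of 0.12, where the groups nearly touch. These 3 genes do not follow the split of the knockdown arrays, since replicate 3 lay on the same side as replicates 1 and 2.

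For the genes that do follow it the group mean hides 2 levels. Slc1a2 gave 2.40 ± 0.70 (SE) with an adjusted p of 0.14 over all arrays, but 3.58 ± 0.21 (SE) with 2.4e-06 without shLFAR1+CCl4 replicate 3. In that fit Slc7a2 was also called higher, at 0.69 ± 0.18 (SE) with an adjusted p of 0.042, and Slc43a2, Slc6a8 and Slc7a7 were called lower, at -1.24, -1.02 and -0.72, while 7.29% of all genes were called. Replicate 3 was left out because it lay with NC+CCl4. The p-values of that fit therefore describe the 2 arrays left and do not test the knockdown. Without NC+CCl4 replicate 2, Slc38a2 and Slc7a2 were called higher, but the share of all genes called in that fit was not counted. Without NC+CCl4 replicate 1 no transporter gene was called, and 0.187% of all genes were.

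The place of each knockdown array between the mean of NC (0%) and the mean of NC+CCl4 (100%) shows the split gene by gene. Replicate 3 lay past 50% for 12 of the 14 genes called with CCl4, and replicates 1 and 2 for 5 each. For Slc1a2 the places were 7.02%, 4.00% and 99.1%, for Slc6a8 32.4%, 32.8% and 93.0%, and for Slc43a2 -10.0%, 1.28% and 111%. The exceptions are as clear. Slc3a1 lay at 128%, 111% and 127%, beyond the NC+CCl4 mean on every array, and Slc7a1 at 54.2%, 59.7% and 53.5%. Slc38a2 lay at 54.5%, 28.3% and 36.5%, and Slc7a2 at 1.86%, 29.5% and -58.4%, so replicate 3 was not the most CCl4-like array for either. The scale is set by the arrays that called these genes, so the places are a description.

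**Figure D3:**
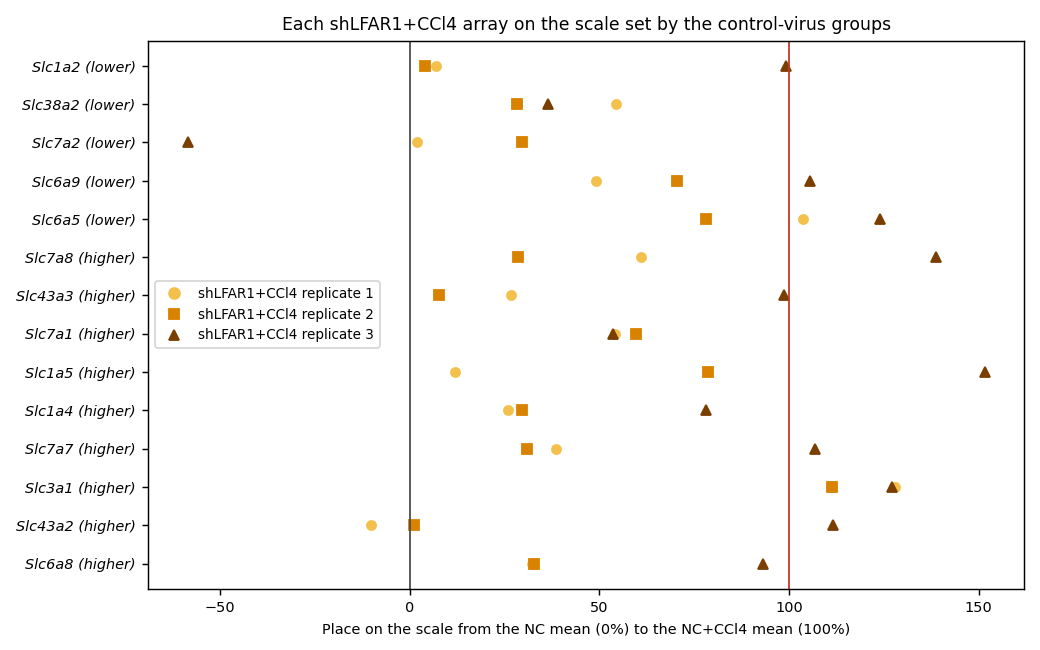
Place of each shLFAR1+CCl4 array on a scale from the NC mean at 0% to the NC+CCl4 mean at 100%, for the 14 genes called in NC+CCl4 against NC, with the called direction in brackets. Replicate 3 (triangles) lies near or past 100% for Slc1a2 and most others but at 36.5% for Slc38a2 and -58.4% for Slc7a2, and Slc3a1 has all 3 arrays past 100%.

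The last comparison, shLFAR1 against NC, asks what the knockdown virus did in oil-treated liver. No transporter gene was called in limma (of all genes, 0% were called higher and 0% lower). Unadjusted, 2 of the 63 had a p under 0.05, beside 504 of all 18193 genes. One was Slc38a2, at 9.98, 10.03 and 10.58 in shLFAR1 against 11.11, 10.60 and 10.92 in NC, a log2 difference of -0.68 ± 0.19 (SE) with an unadjusted p of 0.0035 and an adjusted p of 1.00. Its groups did not overlap, and Student's t-test at the methods' thresholds took it too, with the share of all genes taken not counted. The other was Slc43a3, at -0.38 ± 0.16 (SE). Slc6a16, an orphan member near the bottom of the scale, followed with -0.33 ± 0.16 (SE). For Slc1a2 the 95% interval of the difference was -1.75 to 1.46, and for Slc3a1 -0.20 to 0.25. The interval of Slc1a2 is wide because the shared spread holds the split shLFAR1+CCl4 group, which is not compared here. Its SD was 0.24 in NC and 0.15 in shLFAR1.

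Other genes of amino acid handling were counted beside the carriers. Of 10 enzymes of glutamate and glutamine none rose and 2 fell in NC+CCl4, with a median log2 difference of 0.13, beside 7.66% of all genes called higher, 5.41% called lower and a median of -0.05 over all genes. Glul, the glutamine synthetase of pericentral hepatocytes, read 11.54, 11.28 and 11.50 in NC, 9.62, 10.34 and 8.78 in NC+CCl4, 11.45, 11.47 and 11.39 in shLFAR1 and 11.46, 11.59 and 9.30 in shLFAR1+CCl4. Its pattern is that of Slc1a2, low on all NC+CCl4 arrays and on shLFAR1+CCl4 replicate 3 and at the oil level on replicates 1 and 2. Glul fell by 1.86 ± 0.50 (SE) with an adjusted p of 0.029. Oat, which makes glutamate from ornithine, fell by 2.02 ± 0.43 (SE) with an adjusted p of 0.0092, and read 11.61, 11.61 and 9.56 in shLFAR1+CCl4 against 12.67, 12.73 and 12.88 in shLFAR1, so that here replicates 1 and 2 also lay below the oil arrays. Neither was called between the CCl4 groups, but without shLFAR1+CCl4 replicate 3 both were higher in shLFAR1+CCl4. Glul was higher by 1.94 ± 0.30 (SE) with an adjusted p of 0.0023 and Oat by 1.21 ± 0.20 (SE) with 0.0037. Since that array was picked by where it lay, these values describe the 2 arrays left. The fall of Glul with CCl4 was no longer called when NC+CCl4 replicate 1 was left out (adjusted p of 0.061), while that of Oat was (0.028).

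Of 14 pericentral hepatocyte genes, a list that holds Glul and Oat as well, 2 rose and 5 fell, with a median of -0.35 (all genes 7.66% higher, 5.41% lower, median -0.05). Cyp27a1, a sterol hydroxylase, fell by 0.85 ± 0.15 (SE) with an adjusted p of 0.0041. Cyp2e1, the enzyme that turns CCl4 into its toxic radical, fell by 0.49 ± 0.13 (SE) with an adjusted p of 0.028. Axin2, a Wnt target, rose by 0.53 ± 0.15 (SE) with an adjusted p of 0.040, opposite to Slc1a2 and Glul. Cyp2e1 and Axin2 had adjusted p of 0.089 and 0.099 without NC+CCl4 replicate 1. The pericentral genes therefore did not all move with Slc1a2, and their part in its fall was not tested.

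Of 16 genes of the amino acid shortage response, which ATF4 drives, 2 rose and 1 fell, with a median of -0.09. That count is near the share of all genes, of which 7.66% were called higher and 5.41% lower. Psat1, a serine synthesis enzyme, rose by 1.74 ± 0.46 (SE) with an adjusted p of 0.025, and Nupr1, a stress-induced nuclear protein, by 1.19 ± 0.27 (SE) with 0.014. Chac1, which degrades glutathione, fell by 1.20 ± 0.27 (SE) with an adjusted p of 0.013. It read 7.40, 7.10 and 6.14 in NC, 5.92, 5.86 and 5.25 in NC+CCl4, 5.87, 5.80 and 5.95 in shLFAR1 and 7.02, 7.05 and 7.35 in shLFAR1+CCl4, so the shLFAR1+CCl4 arrays lie above both NC+CCl4 and shLFAR1. Chac1 was called higher in shLFAR1+CCl4 than in NC+CCl4, by 1.46 ± 0.27 (SE) with an adjusted p of 0.049. That adjusted p was 0.079 when replicate 1 of NC+CCl4 was left out and 0.017 when replicate 3 of shLFAR1+CCl4 was. The rise of Psat1 had an adjusted p of 0.087 without NC+CCl4 replicate 1. Atf4 itself gave -0.62 ± 0.24 (SE) with an adjusted p of 0.12 in NC+CCl4.

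Of 17 genes by which the kinase mTORC1 senses amino acids at the lysosome, 1 rose and 4 fell, with a median of -0.12 (all genes 7.66% higher, 5.41% lower, median -0.05). Flcn, which switches on the Rag GTPases, read 8.29, 7.73 and 7.96 in NC, 6.77, 7.16 and 6.75 in NC+CCl4, 7.61, 7.43 and 7.92 in shLFAR1 and 8.38, 8.21 and 7.62 in shLFAR1+CCl4. It fell by 1.10 ± 0.21 (SE) in NC+CCl4 with an adjusted p of 0.0058, and was called higher in shLFAR1+CCl4 than in NC+CCl4, by 1.18 ± 0.21 (SE) with 0.041. The adjusted p of the last difference became 0.096 with replicate 1 of NC+CCl4 left out and 0.0012 with replicate 3 of shLFAR1+CCl4 left out. As with Slc38a2 and Chac1, all 3 shLFAR1+CCl4 arrays lay above all NC+CCl4 arrays. Its partner Fnip1 fell by 0.65 ± 0.20 (SE) with an adjusted p of 0.048, and Rragd, one of the Rag GTPases, rose by 0.75 ± 0.21 (SE) with 0.036. Neither was called without NC+CCl4 replicate 1, with adjusted p of 0.14 for Fnip1 and 0.076 for Rragd.

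**Figure D4:**
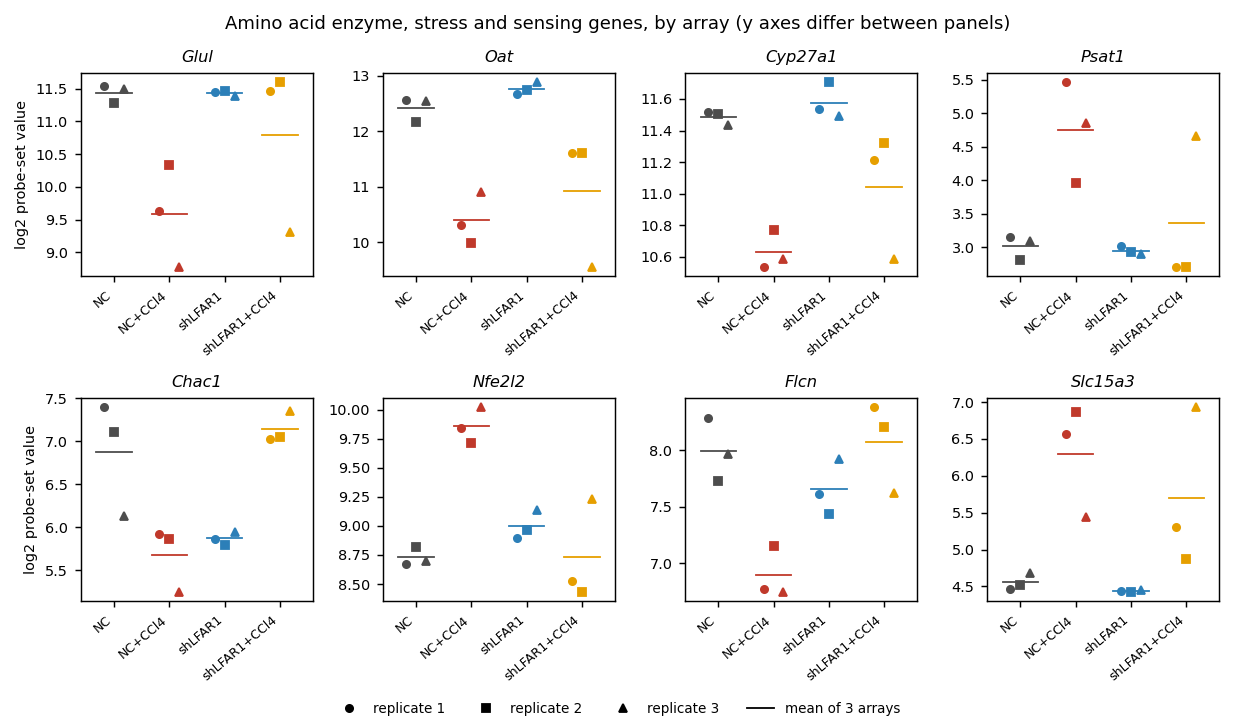
Log2 value on each array of 8 called genes of amino acid metabolism, stress and sensing, with the mean of 3 arrays as a line. Glul, Oat and Cyp27a1 have shLFAR1+CCl4 replicate 3 (triangle) with the NC+CCl4 arrays, while Chac1 and Flcn have all 3 shLFAR1+CCl4 arrays above NC+CCl4.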

How the data were processed

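Liver RNA was measured on Affymetrix Mouse Genome arrays that read transcripts near their 3′ end, 12 in 4 groups of 3 taken from the sample labels. The authors summarized and normalized the data before deposition, and deposited log2 values from 1.81 to 14.5. The method is not given in the sources used here. The values carry no detection calls, and precision is limited by how few arrays there are. The labelling kit in the labels is one for whole-transcript arrays. The annotation gave exactly 1 symbol to 34945 of 45101 probe sets, several to 932 and none to 9211, and 64 were controls. For each of 18193 genes the probe set with the highest mean was used. The transporter genes had 125 probe sets, 32 genes had over 1, and 1 probe set shared with another symbol was left out. Levels of different genes were not compared as amounts.

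A model of 4 group means was fitted in limma 3.58.1 (R 4.3.3, eBayes with trend, two-sided, 8 residual degrees of freedom), with p adjusted by Benjamini-Hochberg over all genes. The script was tested on simulated data. Genes named were those called in any comparison, the 10 highest means, the highest mean of each role group, the 3 smallest p where none was called, and called genes of related lists. Others named were chosen after their values were seen. Members and lists were chosen with earlier results of these data known. The main model did not pair arrays, and the replicate number entered only in the replicate block, an alternative. The labels state no pairing. Deviations from the group means correlated weakly between same-numbered arrays of NC+CCl4 and shLFAR1+CCl4 (0.126, 0.229 and 0.192). Same-numbered arrays of other group pairs did not all pass 0.1. Differently numbered arrays of NC+CCl4 and shLFAR1+CCl4 gave -0.234 to 0.093, but NC replicate 3 with NC+CCl4 replicate 2 gave 0.188. These values do not establish a pairing. Alternatives were moderation, array weights, normalization, probe set rule, a filter on dim genes, Student's t-test, a replicate block and left-out arrays. For the arrays the methods give a fold over 1.6 and p under 0.05 as thresholds but name no test, so the t-test was chosen here. Sequences came from RefSeq tables of GRCm38.p6, where 46 transporter genes matched. Motif searches and plots used Python 3.11.15.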

Additional observations from a re-analysis of the deposited data

How the results depend on the processing

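The number of transporter genes called in NC+CCl4 against NC was 14. It was 3 by Student's t-test with Benjamini-Hochberg adjustment, namely Slc1a2, Slc3a1 and the dim Slc6a14, which is not among the 14. It was 9 by that test at unadjusted p and a fold over 1.6, and 7 to 15 with 1 array left out. It was 10 to 15 under the other alternatives, 14 with a replicate block and 14 without both arrays that stood apart, a setting added after seeing the data. In shLFAR1+CCl4 against shLFAR1 the count was 1, against 2 with array weights, 0 by the adjusted t-test and 1 in every fit with 1 array left out. In shLFAR1+CCl4 against NC+CCl4 it was 0, against 3 with array weights (Slc1a2, Slc6a12 and Slc6a8), 2 by the unadjusted t-test, 0 to 5 with 1 array left out and 5 without both arrays. In shLFAR1 against NC it was 0, against 1 by the unadjusted t-test and 0 with 1 array left out. For the interaction it was 0, against 2 with array weights, 0 to 4 with 1 array left out and 3 without both arrays. With the replicate block the counts of the last 4 comparisons were 1, 0, 0 and 0. In NC+CCl4 against NC the block dropped Slc7a8 and added Slc6a12. The share of all genes called also moved with the setting. Without shLFAR1+CCl4 replicate 3 it was 16.1% in NC+CCl4 against NC, beside 13.1% with all arrays. It was 7.29% in shLFAR1+CCl4 against NC+CCl4, beside 0.291%, and 3.20% for the interaction, beside 0.022%. For most other settings that share was not counted, so these counts are no result about the transporter genes. The cause of the differences between settings was not tested.

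Slc1a2 and Slc3a1 were called in NC+CCl4 against NC under all 24 alternatives, and Slc38a2, Slc6a8 and Slc7a7 under 23, and no named result reversed. Across them Slc1a2 fell by 3.92 at most, and fell by 1.76 with the mean of all its probe sets (log2 scale). The t-test and the fit of the compared groups alone gave no interaction value. With 3 arrays a group and no detection calls, small changes of dim genes could not be resolved.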

Other observations

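Of 18 other amino acid and peptide carriers, 1 rose and none fell in NC+CCl4, with a median log2 difference of -0.08. Of all genes, 7.66% were called higher and 5.41% lower, so the share of these carriers called was not above that of all genes. Slc15a3, a lysosomal histidine and peptide carrier of macrophages, rose by 1.74 ± 0.44 (SE) with an adjusted p of 0.023 in limma. It read 4.46, 4.52 and 4.68 in NC, 6.57, 6.87 and 5.45 in NC+CCl4 and 5.31, 4.87 and 6.93 in shLFAR1+CCl4, so replicates 1 and 2 of the knockdown group also lay above the NC arrays. Its adjusted p was 0.067 without NC+CCl4 replicate 1. The mitochondrial aspartate-glutamate carrier Slc25a13 gave -0.22 with an adjusted p of 0.31.

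Of 13 genes of cystine and glutathione handling, 1 rose and 2 fell, with a median of -0.04 (all genes 7.66% higher, 5.41% lower). Nfe2l2, the transcription factor Nrf2, rose by 1.13 ± 0.18 (SE) in NC+CCl4 with an adjusted p of 0.0022 in limma. Gclc and Gclm, the subunits of the enzyme that starts glutathione synthesis and both known Nrf2 targets, fell by 0.92 ± 0.26 (SE) and 0.46 ± 0.13 (SE) with adjusted p of 0.032 and 0.033. The rest of the list was not called and went both ways. Means were higher in NC+CCl4 than in NC for Srxn1 (8.08 against 7.48), Nqo1 (5.92 against 5.43), Txnrd1 (10.08 against 9.85), Gss and Gpx4. They were lower for Gsr (8.99 against 9.46), Hmox1, Cth, Cbs and Chac2. Nfe2l2 was called lower in shLFAR1+CCl4 than in NC+CCl4, by 1.13 ± 0.18 (SE) with an adjusted p of 0.021. It read 8.52, 8.43 and 9.23 in shLFAR1+CCl4 and 9.85, 9.71 and 10.02 in NC+CCl4, without overlap. With NC+CCl4 replicate 1 left out the adjusted p was 0.061 for this difference, 0.056 for Gclc and 0.078 for Gclm, and without shLFAR1+CCl4 replicate 3 it was 5.9e-05 for this difference. The cystine carrier Slc7a11, another Nrf2 target, was not called in any of the 5 comparisons.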
